A study of Mus musculus with 2 samples.

Results

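The Slc24 genes encode exchangers of the plasma membrane and of intracellular membranes that carry calcium and potassium against sodium. The 5 mouse members, Slc24a1 to Slc24a5, were examined for H3K9me2 (dimethylation of histone H3 at lysine 9) in embryonic cortex. Their peaks were chosen by position: a listed peak was assigned to a member when it overlapped the RefSeq gene extended by 2 kb on both sides, and for Slc24a3 all peaks of chromosome 2 from 144000001 to 147000000 were read as well. The 5 genes are of 21523 coding genes in the table. They held 8 of the 6253 peaks listed for TBC1D3-transgenic cortex and 1 of the 743 peaks listed for wild-type cortex. With the chromosome 2 span included the numbers were 15 and 2. Slc24a3 was picked because its transgenic count was high and its wild-type count was 0, so those counts are a description and carry no test.

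Both libraries came from cortex of C57BL/6 embryos at embryonic day 15.5, immunoprecipitated with an antibody to H3K9me2. The TBC1D3-transgenic group was 1 library from embryos carrying TBC1D3, a hominoid gene, as a transgene, and the wild-type group was 1 library. The promoter of the transgene, the line and the number of embryos per library are not given in the sources used here. TBC1D3 is not a mouse gene and the files hold no expression, so neither the transgene nor the tissue could be checked from them. With 1 library per genotype no difference has a replicate check. All intervals below are exact 95% intervals that cover counting error only.

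The exchangers move calcium out of the cytoplasm by letting sodium flow in, and they also export potassium, which lets them work where the sodium gradient alone would be too weak. Slc24a1 is known from rod photoreceptors, Slc24a2 from cones and neurons, Slc24a3 from brain and smooth muscle, and Slc24a4 from olfactory neurons, brain and enamel-forming cells. Slc24a5 sits on intracellular membranes of pigment cells and is known for its part in skin and eye colour. H3K9me2 is a mark of silenced or inactive chromatin, placed in large part by the methyltransferase G9a, which the study's title links to TBC1D3.

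Slc24a3 is the longest of the 5 genes and has 2 annotated starts in RefSeq (GRCm38.p6), both on the plus strand. The 250 bases before each start are shown because every listed peak of the gene lies downstream of both. CG dinucleotides are in capitals.
Slc24a3 first start, chr2:145167525-145167774, plus strand: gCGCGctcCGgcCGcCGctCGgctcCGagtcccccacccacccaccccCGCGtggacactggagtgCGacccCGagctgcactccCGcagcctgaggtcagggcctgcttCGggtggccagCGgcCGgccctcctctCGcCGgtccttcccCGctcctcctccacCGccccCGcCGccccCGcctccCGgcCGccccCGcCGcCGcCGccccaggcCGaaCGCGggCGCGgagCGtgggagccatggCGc
Slc24a3 second start, chr2:145242361-145242610, plus strand: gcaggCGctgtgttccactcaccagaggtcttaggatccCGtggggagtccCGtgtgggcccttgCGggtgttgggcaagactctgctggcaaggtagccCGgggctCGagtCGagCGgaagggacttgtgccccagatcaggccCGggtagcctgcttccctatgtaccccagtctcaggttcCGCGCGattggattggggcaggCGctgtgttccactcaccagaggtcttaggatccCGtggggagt
The first window holds 35 CG dinucleotides and 80.8% G and C. Only 2.97% of the 32851 windows of 250 bases before RefSeq starts hold as many, whose median is 6, and 92.1% hold at least 1. CG reads the same on both strands. The second window holds 14, a number reached by 29.4% of windows. It also repeats itself: the 49 bases from position 1 occur again from position 202, counted from the 5′ end of the window. The other members' windows hold 5 CG dinucleotides in Slc24a1, 2 and 9 at the 2 starts of Slc24a2, 11 in Slc24a4 and 5 in Slc24a5. No listed peak overlapped any of these 7 windows. The nearest transgenic peak lay 85.8 kb from the first start of Slc24a3 and 11.0 kb from the second. The nearest wild-type peak lay 924 kb and 849 kb from them.

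Among the exchangers, the transgenic peaks all fell on Slc24a3 and the single wild-type peak on Slc24a4. Slc24a3 (gene ID 94249, chromosome 2, 145167775 to 145642166, 474 kb) held 8 peaks in the transgenic library (interval 3.45 to 15.8) and 0 in the wild-type library. Slc24a4 (gene ID 238384, chromosome 12, 102128727 to 102267133, 138 kb) held 0 in the transgenic library and 1 in the wild-type library (0.0253 to 5.57). Slc24a1 (gene ID 214111, chromosome 9, 64922861 to 64951620), Slc24a2 (gene ID 76376, chromosome 4, 86983124 to 87230652) and Slc24a5 (gene ID 317750, chromosome 2, 125068127 to 125088677) held 0 in both. So 1 of the 5 members held a transgenic peak and 1 a wild-type peak. Over all coding genes 5.69% held a transgenic and 0.911% a wild-type peak, and nothing is read from the members' counts, since they were chosen with them known.

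**Figure D1:**
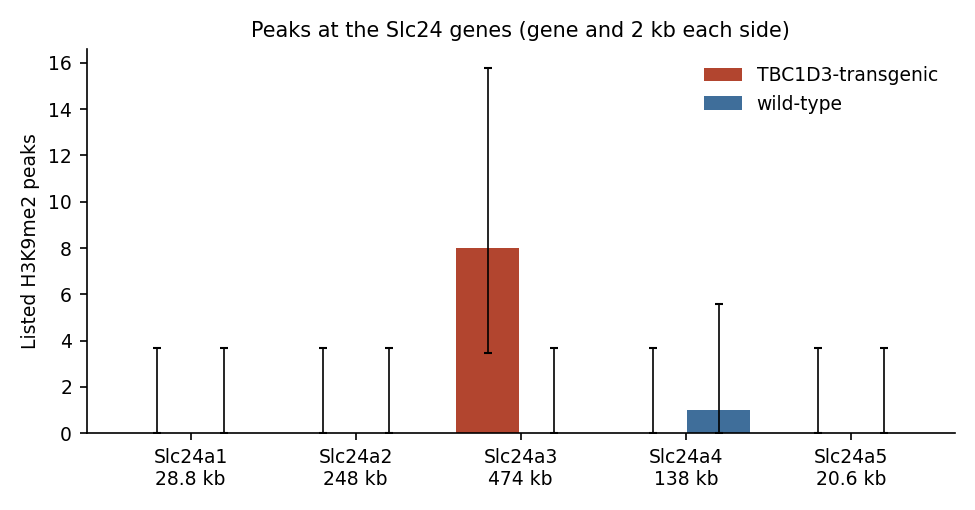
Listed peaks overlapping each Slc24 gene extended by 2 kb, in the TBC1D3-transgenic (left bar) and the wild-type library (right bar). Gene length is under each name and the lines are exact 95% Poisson intervals, counting error only. Slc24a3 has 8 transgenic and 0 wild-type peaks, Slc24a4 0 and 1, and the other genes have none.

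A count of 0 says little for the shorter genes. Slc24a1 is 28.8 kb and Slc24a5 20.6 kb long, and the peak density of the rest of their chromosomes would give 0.0852 and 0.0588 transgenic peaks there. For Slc24a2, 248 kb long, it would give 0.524 transgenic and 0.0772 wild-type peaks. For Slc24a4 it would give 0.356 and 0.0426. A lack of peaks in these 4 genes was therefore not detectable in lists of this length. The share of coding genes with a peak grew with length. Under 50 kb it was 1.74% in the transgenic and 0.139% in the wild-type library, from 100 to 300 kb, the class of Slc24a2 and Slc24a4, 19.6% and 3.32%, and from 300 kb, the class of Slc24a3, 65.4% and 16.0%.

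Slc24a3 was dense in transgenic peaks for its chromosome. It held 16.7 peaks per Mb (7.22 to 33.0), where the rest of chromosome 2 held 2.36, a ratio of 7.09 (3.06 to 14.0). At that mean density 1.13 peaks would fall in the gene. The count depended on the cut. With peaks under a −log10 p of 5 left out, the gene kept 1, and the ratio, resting on that 1 peak, was 2.72. With those under a fold of 5 left out it kept 0. These cuts kept 32.6% and 2.65% of the whole transgenic list, and 12.5% and 0% of the Slc24a3 peaks. At the p cut the gene thus kept a smaller share than its list, and the ratio fell below the interval given above. Why it did was not tested. At the fold cut few peaks were left to count in any gene. In the wild-type list the rest of chromosome 2 held 0.314 peaks per Mb, which gives 0.15 peaks in Slc24a3, so the 0 there was not detectable as a lack. As a share of its list, Slc24a3 held 0.128% of transgenic peaks (0.0553 to 0.252), and 0 of 743 wild-type peaks allows a share of up to 0.404% at 3 counts, or 0.495% by the exact interval. Either wild-type limit lies above the transgenic share, so at this list length a difference between the libraries in the share of peaks at Slc24a3 was not detectable.

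The 8 transgenic peaks were spread over the inner part of the gene and formed 1 tighter stretch. The gene runs from left to right in chromosome 2 coordinates, and the first peak began 85.8 kb into it. In order, the peaks of GRCm38 chromosome 2 began at 145253563, 145257249, 145338210, 145362075, 145376951, 145393480, 145501783 and 145552383. The last ended 89.6 kb before the end of the gene. Cut into 4 equal parts, the gene had 2, 4, 1 and 1 peak summits from its start to its end. The first pair lay 3.58 kb apart. A run of 4 peaks fell in 55.4 kb, from 145338210 to 145393596, and the next gap was the largest, at 108 kb. The gene table has no exons, so exon, intron and UTR were not separated, but each of the 8 lay inside the annotated gene body.

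The peaks were short and the fragments under each were few. Widths ran from 111 to 169 bp with a median of 126 bp, beside a median of 115 bp over the whole transgenic list. A fragment here is a ChIP tag extended to 111 bp in the transgenic call and 57 bp in the wild-type call, and the count is the number stacked over the peak's summit. In the same order the 8 peaks had 5, 7, 5, 6, 8, 6, 5 and 7 fragments. The local background that the peak caller set against them ran from 0.841 to 1.31 fragments, with a median of 0.992, beside a median of 0.997 over the whole transgenic list. The highest stack, of 8 fragments, was the peak at 145376951 to 145377119, and it stood on one of the 2 highest backgrounds, 1.31.

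The authors' fold enrichment of these peaks ran from 3.02 to 4.01 with a median of 3.46, beside a median of 3.62 in the whole list. The peak at 145257249 to 145257406 had the highest fold, 4.01, from 7 fragments. The peak at 145501783 to 145501912 had the lowest, 3.02, from 5. The q listed ran from 0.132 to 0.363, so 0 of the 8 had a q of 0.1 or less, where 23.1% of the list did. A −log10 p of at least 5 was reached by 1 of the 8, the peak at 145376951 with 5.0008, and the peak at 145257249 was just under it with 4.9986. In the whole list 32.6% of peaks reached it. Peaks of 5 fragments, the smallest number listed, made up 37.5% of the 8 and 20.2% of the list. A fold of at least 5 was reached by 0 of the 8 and by 2.65% of the list. The Slc24a3 peaks were thus many for the gene's length, and weak or middling within their list.

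**Figure D2:**
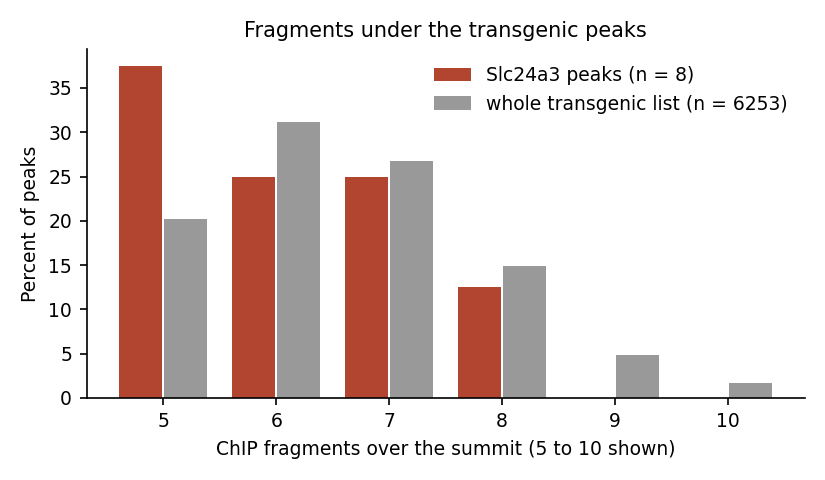
Percent of transgenic peaks with each number of ChIP fragments over the summit, for the 8 Slc24a3 peaks (left bars) and the whole list of 6253 peaks, which includes them (right bars). The Slc24a3 peaks lie between 5 and 8 fragments, and peaks of more than 10 fragments are not drawn.

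Other annotated genes lie inside Slc24a3. The peak at 145552383 also overlaps Gm14092, a coding gene of 5.53 kb in the table, so it was counted for both. The lncRNA gene Gm52528 ends just before the peak that begins at 145362075, and the other noncoding genes in Slc24a3, Gm52529, Gm52530, Gm11759 and Gm19115, had no transgenic peak within 2 kb. The reads cannot be assigned to one gene or the other.

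Averaged over a 3 Mb span, the surroundings of Slc24a3 were less dense in transgenic peaks than the gene. The 3 Mb span held 15 transgenic peaks (8.40 to 24.7) and 1 wild-type peak. In the transgenic library 1, 12 and 2 of them had their summits in the 3 successive Mb, and in the wild-type library 0, 0 and 1. The transgenic density of the span was 2.13 times (1.19 to 3.51) that of the rest of chromosome 2. Without the 8 peaks of Slc24a3 and its length, the remaining 7 peaks gave 2.78 per Mb, 1.18 times (0.474 to 2.43) the rest of the chromosome. That interval includes 1, but the value is an average over the span. It mixes the Mb of the gene with the Mb on either side, which held only 1 and 2 peaks. Of the remaining peaks, those beginning at 145063812, 145649844, 145730414 and 145974977 lay in the same Mb as the gene. The remaining peaks were thus not spread evenly over the span. The density of the gene's Mb without the gene was not computed. The ratio of 1.18 therefore does not show that density fell to the chromosome's level right outside Slc24a3. In the wild-type library the span held 0.333 peaks per Mb, beside 0.312 on the rest of the chromosome.

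The Mb from 145000001 held the most transgenic peaks of the 179 windows of chromosome 2, whose next highest held 9 and whose mean was 2.40. Of 2394 autosomal windows of 1 Mb, 2 held more and 5 held at least 12. The rule named this place for its count, so its rank is a description.

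**Figure D3:**
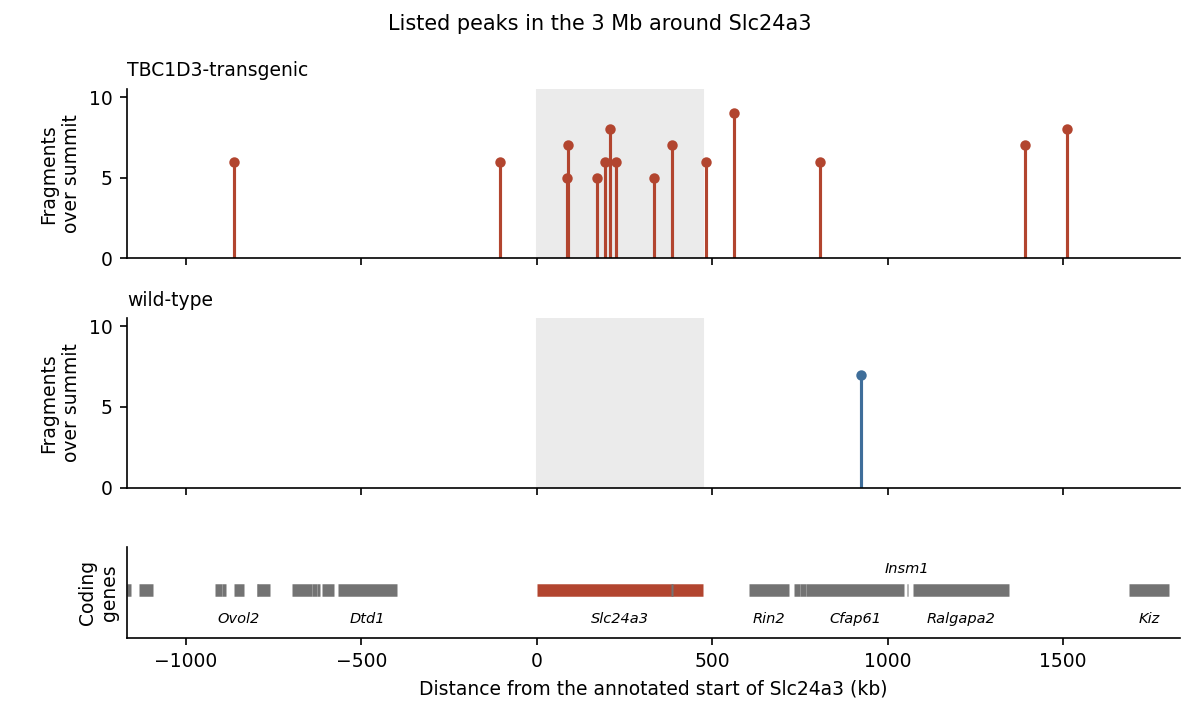
Listed peaks by distance of the summit from the annotated start of Slc24a3, in the TBC1D3-transgenic (top) and the wild-type library (middle), over the 3 Mb span. Height is the number of ChIP fragments over the summit, the grey band is Slc24a3, and the lowest track shows coding genes. The band holds 8 transgenic and 0 wild-type peaks, where the wild-type density of the chromosome would give 0.15, and the single wild-type peak of the span lies 924 kb from the start.

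The strongest peak of the neighbourhood lay outside the exchanger gene. At 145730414 to 145730525, 88.2 kb past the end of Slc24a3 and inside the lncRNA gene BC039771, a transgenic peak had 9 fragments, a fold of 5.03 and a q of 0.0673. A nearer one, at 145649844 to 145650062, lay 7.68 kb past the gene with 6 fragments and a fold of 3.69, just outside the 2 kb flank. Upstream, the nearest lay 104 kb before the gene, with 6 fragments. The 190 kb between that peak and the first inside the gene held none.

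Of 23 coding genes in the span, Slc24a3 included, 4 held a transgenic peak and 1 a wild-type peak. Over all coding genes the shares were 5.69% and 0.911%, and nothing is read from the span's counts, since it was picked for Slc24a3. Beside Slc24a3 and Gm14092 the transgenic peaks lay at Ovol2, a zinc finger transcription factor of epithelia, in its flank, and in Cfap61, a protein of cilia and flagella. Cfap61 also held the wild-type peak of the span, at 146091863 to 146091919, with 7 fragments and a fold of 4.13. It lay 117 kb from the transgenic peak of Cfap61 (145974977 to 145975087, 6 fragments, fold 3.51). The lists were called separately with different fragment extensions, so fragments and fold are not compared between these peaks. Insm1, a zinc finger factor that promotes basal progenitors in developing cortex, held no peak in either library. Its nearest transgenic peak was 247 kb away and its nearest wild-type peak 130 kb. Past the span, Nkx2-4 and Nkx2-2, homeobox genes of the ventral neural tube and hypothalamus, Pax1 of the sclerotome, and Foxa2 of the floor plate also held none. In that order their nearest transgenic peaks were 131, 21.4, 48.4 and 23.8 kb away, and their nearest wild-type peaks 925, 815, 635 and 32.5 kb. Insm1 and these genes are 2.1 to 18.9 kb long, so a lack of peaks in them was not detectable.

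Near the other exchangers, transgenic peaks lay within 100 kb of Slc24a4 and Slc24a2. Slc24a4 had 2 upstream of its start, at 29.4 kb with 6 fragments and a fold of 3.31 and at 25.1 kb with 7 fragments and a fold of 3.66. A further one lay 56.5 kb past its end with 7 fragments and a fold of 3.30. The wild-type peak inside Slc24a4, at chromosome 12, 102238873 to 102238929, had 6 fragments, a fold of 3.35, a −log10 p of 3.23 and a q of 1. Of the wild-type list 95.3% had that same q, and 86.8% had a p as low or lower. This wild-type peak of Slc24a4 lay 84.7 kb from the nearest transgenic peak. Slc24a2 had 1 transgenic peak 65.4 kb past its 3′ end, with 5 fragments and a fold of 3.02. Slc24a5 and Slc24a1 had no peak of either library within 100 kb, and their nearest transgenic peaks were 214 kb and 1050 kb away.

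Slc24a3 was set beside the other long coding genes of its chromosome, 36 of at least 300 kb. In these the transgenic library had 60 peaks in 22.1 Mb, or 2.72 per Mb (2.07 to 3.50), and the wild-type library 10. The median was 1 transgenic peak per gene, 28 of the 36 held any, and 8 held none. With Slc24a3 the share was 78.4%, and the wild-type share was 24.3%. The most transgenic peaks were 7 in Macrod2, an ADP-ribosylhydrolase gene of 2000 kb. Lrp1b, a lipoprotein receptor relative, held 5 in 2060 kb. Ryr3, a calcium release channel, Plcb1, a phospholipase C, and Arhgap15 held 4 each, and Etl4, Ptprt, a receptor tyrosine phosphatase, and Pde1a, a phosphodiesterase controlled by calcium and calmodulin, held 3 each. Per Mb, the highest of the 36 was Pde1a with 8.20, beside 16.7 in Slc24a3. Arhgap15, Ptprt and Macrod2 also held wild-type peaks, 1, 1 and 2.

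Over the whole table, 11 genes, or 0.0511% of coding genes, held at least 8 transgenic peaks, and 7 of these held more than Slc24a3. Of 557 coding genes of at least 300 kb, 2 were denser in transgenic peaks than Slc24a3, Ano2 and Grin2a. The median of these long genes was 1 peak.

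The 5 genes whose counts in the 2 libraries were most like those of Slc24a3 were Gpc5, Csmd1, Ano2, Trpm3 and Lsamp, each within 1 peak in sum. Likeness here rests on 2 numbers per gene. Gpc5, a heparan sulfate proteoglycan, and Csmd1, a membrane protein with complement-type domains, also held 8 transgenic and 0 wild-type peaks, but over 1430 kb and 1640 kb. Their densities were 5.57 per Mb (2.40 to 11.0) and 4.86 per Mb (2.10 to 9.57). All of these genes were picked for their counts, so the densities are a description. Trpm3, a cation channel, held 7 peaks at 8.12 per Mb, and Lsamp, a neuronal adhesion protein, 7 at 3.18 per Mb (1.28 to 6.55). Of their peaks, 4 in Gpc5, 4 in Csmd1, 3 in Ano2, 2 in Trpm3 and 2 in Lsamp reached a −log10 p of 5, against 1 in Slc24a3. Ano2, the calcium-activated chloride channel of olfactory neurons, where Slc24a4 also works, held 9 peaks at 25.4 per Mb (11.6 to 48.3).

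**Figure D4:**
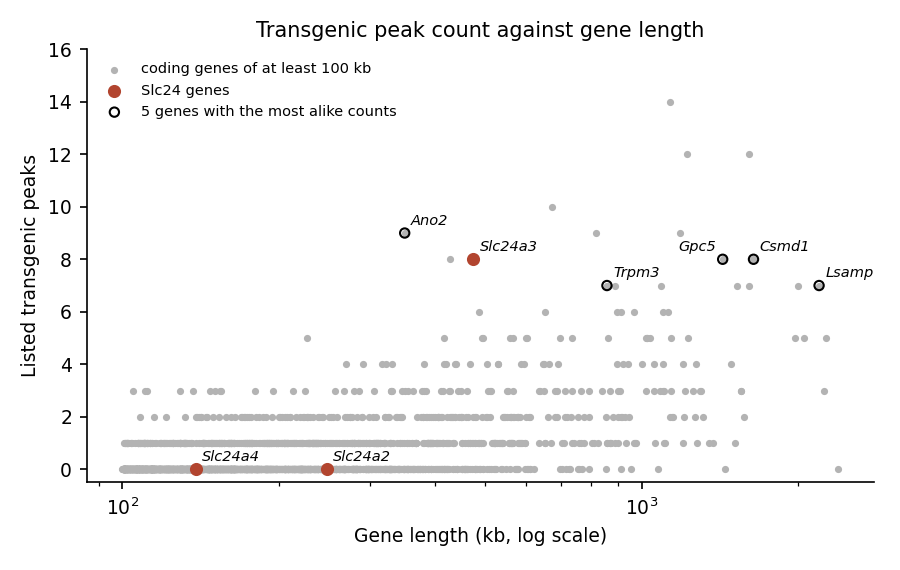
Transgenic peaks per coding gene of at least 100 kb against gene length on a log scale. Filled red points are Slc24a3 with 8 peaks and Slc24a4 and Slc24a2 with 0; Slc24a1 and Slc24a5 are shorter than the axis, and rings mark the 5 genes of most alike counts. Slc24a3 lies high for its 474 kb.

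Other genes of calcium transport and genes that work with the exchangers were read from 8 lists of 50 genes in all. Of the 50, 11 held a transgenic peak, or 22.0%, and 0 a wild-type peak, beside 5.69% and 0.911% of all coding genes. With peaks under a −log10 p of 5 left out the 11 became 5. The listed genes were longer, with a median of 68.1 kb against 17.4 kb over all coding genes. All 6 of at least 300 kb held a transgenic peak, where 65.4% of all coding genes of that length did. Of the 44 shorter ones 5 did, where 4.10% of all coding genes under 300 kb did. That last share is not matched for length, since 16592 of the 21523 coding genes are under 50 kb. Of those, 1.74% held one. Among the 5, Cnga3 is 45.1 kb long, and Slc8a3, Atp2b1, Cngb3 and Atp2b2 are 136, 112, 230 and 299 kb long. In the length class of the latter, also that of Slc24a2 and Slc24a4, 19.6% of all coding genes held one. Whether the listed genes held peaks more often than coding genes of like length was not tested.

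Among the sodium/calcium exchangers of the Slc8 family, which work without potassium, Slc8a1 and Slc8a3 held 1 transgenic peak each, and Slc8a2 and Slc8b1 held none. The mean density of their chromosomes gives 0.908 peaks in Slc8a1 and 0.349 in Slc8a3. Of the plasma membrane calcium pumps, Atp2b2 held 2 and Atp2b1 held 1, where the chromosome means give 0.770 and 0.293. The pumps of the endoplasmic reticulum and Golgi, 5 genes from Atp2a1 to Atp2c2 with a median length of 48.7 kb, held none. Over all coding genes 5.69% held a transgenic peak, and nothing is read from these family counts. The Slc8 and pump peaks each rested on 5 to 8 fragments.

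The calcium release channels of the endoplasmic reticulum, with a median length of 366 kb, held 10 transgenic peaks in 4 of 6 genes. Those 4 are each at least 300 kb long, and 65.4% of all coding genes of that length held one. Ryr1 and Itpr3, which held none, are shorter than 300 kb. Ryr3 held 4, Ryr2 3, Itpr1 2 and Itpr2 1, where the chromosome means give 1.41, 1.74, 0.870 and 1.01. The 3 peaks of Ryr2 all reached a −log10 p of 5. The counts of Ryr2, Itpr1 and Itpr2 have intervals that include the chromosome mean, and so does that of Ryr3 (1.09 to 10.2). Store-operated entry genes, Stim1 and Orai1 among them, and genes of mitochondrial uptake such as Mcu held 0 of 5 and 0 of 6. Their median lengths were 23.2 kb and 82.2 kb, and 5.69% of all coding genes held a transgenic peak. Nothing is read from these zeros.

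Of the genes of light and odour transduction, in which Slc24a1, Slc24a2 and Slc24a4 take part, 3 of 12 held a transgenic peak. They were Ano2, Cnga3 and Cngb3, where the chromosome means give 0.9, 0.132 and 0.486 peaks. Over all coding genes 5.69% held one, but the listed genes had a median length of 56.3 kb against 17.4 kb over all coding genes. Ano2 is 350 kb, Cngb3 230 kb and Cnga3 45.1 kb long. In their length classes 65.4%, 19.6% and 1.74% of all coding genes held one. Ano2, already picked above for its count, held 9 of the 11 peaks of this list. Cnga3 and Cngb3 are subunits of the cone cation channel, with 1 peak each, of 5 and 7 fragments. Of 8 pigment cell genes, the setting of Slc24a5, 0 held a peak in either library, and their median length was 26.4 kb.

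**Figure D5:**
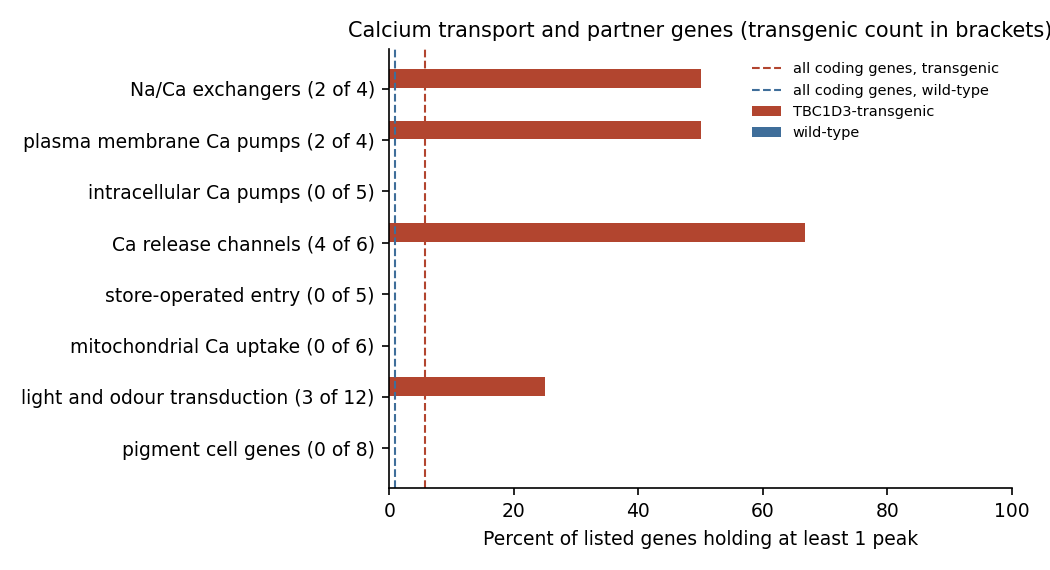
Percent of the genes of each calcium list holding at least 1 peak in the TBC1D3-transgenic (upper bar) and the wild-type library (lower bar, 0 in every list). Dashed lines are the shares of all coding genes, 5.69% and 0.911%, and the brackets give the transgenic count of each list. Release channels have 4 of 6 with a median length of 366 kb. Those 4 are each at least 300 kb long, and of all coding genes of that length 65.4% hold a transgenic peak.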

How the data were processed

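H3K9me2 chromatin immunoprecipitation and sequencing was analysed from 1 peak list per genotype. The authors ran MACS version 2.1.0.20150420 on each library against its own input, per the file headers, with a p-value cutoff of 0.001, no shift model and summit calling. The submitters' processing notes also name BWA and mm10. The depth after filtering was 20697113 ChIP and 20968853 input tags in the transgenic library, and 26735120 and 25431051 in the wild-type library, per the file headers. The pileup the authors deposited is a signal that counts extended fragments at the summit, the larger of ChIP and input having been scaled down to the smaller. Dividing by that factor (1 and 0.951) gave whole fragments within 0.02 for 100% of peaks. The deposited fold enrichment ratio is pileup plus 1 over local background plus 1, from which the background was taken. MACS gave the −log10 p and −log10 q that were deposited. The headers say that q was not calculated, yet values are listed and were used as listed.

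Peaks were placed on genes of a RefSeq table (GRCm38.p6, the assembly mm10 represents) on chromosomes 1 to 19 and X, leaving out genes that start below 3 Mb, where the chromosomes hold no known bases. Densities used the length from 3 Mb to the last gene or peak of a chromosome, with no correction for mappability. Strand and starts came from RefSeq promoter sequences, which matched all 5 members. Peak sequences were not analysed here. Shares have exact Clopper-Pearson and counts exact Poisson intervals at 95%. A count of 0 allows up to 3. Counting was tested on planted peaks. Python 3.11.15, pandas 2.3.3, numpy 2.4.6 and scipy 1.17.1 were used.

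The members and lists were chosen with earlier results of these data known. Named genes were the 5 members, coding genes of the span with a peak, Insm1, Nkx2-2, Nkx2-4, Pax1 and Foxa2, listed calcium genes with a peak, chromosome 2 genes of at least 300 kb (values for those with most peaks, the rest as counts), and the 5 genes of most alike counts. Other genes were named after their values were seen. Alternatives were stricter fold and p, a shortened transgenic list, merging, other extensions and summit placement. Merging within 10 kb and a minimum of 6 fragments were chosen after seeing the data.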

Additional observations from a re-analysis of the deposited data

How the results depend on the processing

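No paired analysis was possible because each genotype has 1 library, and for the same reason none could be left out. Of 135 values under alternatives 116 stayed within 1.5 times the main count, or within the interval for the density ratio, and 19 moved. Many of the 116 were main counts of 0, which a filter, a shortened list or merging cannot move. Shortening the transgenic list also cannot change a wild-type value. The tally is therefore no measure of how stable the counts above 0 were. The 8 Slc24a3 peaks in the transgenic library became 0 at a fold of at least 5, 1 at a −log10 p of at least 5, 0 with only the 743 transgenic peaks of lowest q, and 5 with at least 6 fragments. The density ratio of 7.09 became 0, 2.72 and 0 under the first 3 of these. The members with a transgenic peak became 0 at a fold of at least 5 and 0 with those 743 peaks, and those with a wild-type peak 0 at either stricter threshold. The span's 15 transgenic peaks became 1 at a fold of at least 5, 2 at a −log10 p of at least 5 and 1 with those 743 peaks, and its 1 wild-type peak became 0 at either threshold. Calcium genes with a transgenic peak became 5 at a −log10 p of at least 5. These filters left 166 (fold) and 2036 (p) of 6253 transgenic peaks, and 62 and 185 of 743 wild-type peaks, so fewer peaks were there to count. At the p threshold the transgenic list kept 32.6% of its peaks and Slc24a3 12.5%. Merging, summit placement and extensions of 0 and 10 kb kept the Slc24a3 count within 1.5 times.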
